A study of Vanessa cardui and Junonia coenia with 16 samples.

Results

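In the common buckeye butterfly, Junonia coenia, 100 clusters of a transcriptome assembly were more abundant in the hindwing than in the forewing in both wild type and optix knockout. A cluster is the sum of all rows of the transcriptome assembly that share a TRINITY DN number and a c number. The table held 124280 clusters, of which 46698 were above 0 in a library and 13250 had a mean sum of at least 2 FPKM (fragments mapped to a transcript, scaled to transcript length and library total). The 100 were selected on the wing difference itself. For each wild-type and each knockout number the forewing was subtracted from the hindwing on the scale log2(summed FPKM + 1), and the smallest of these 4 differences was the score of the cluster. Candidates had a mean sum of at least 2, a largest library at least 2 times the smallest, and genotypes that were not fully separated. Of 9799 candidates, 757 had a score above 0, and the 100 with the highest scores were taken. The higher level in the hindwing is therefore how they were chosen, not a finding, and it is given as a description with no test.

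The libraries came from a study of optix, which encodes a transcription factor that sets red and orange colour pattern in many butterfly wings. Forewing and hindwing of wild type and of knockout were each represented by 2 libraries, all from the melanin stage, late in pupal life, when the wing pigments become visible. The knockout forewings carry the label of large defects and the knockout hindwings that of optix knockout, with no size of defect. The animals came from a laboratory colony, were fed artificial diet with dried Plantago lanceolata leaves and were kept at 27 °C and 60% humidity with 16 h of light and 8 h of dark. The libraries of a group are described as biological replicates. What a forewing and a hindwing of one number share, such as the animal, is not stated. The genotypes rest on the labels, since optix itself was not analysed here. The share of cells that carry the knockout was not measured here.

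The fore- and hindwings of a butterfly form from separate imaginal discs. The Hox gene Ultrabithorax is expressed in the hindwing and not in the forewing, and in butterflies it is known to give the hindwing its own shape, scales and pattern. Late in pupal life the scale cells harden their cuticle and lay down orange to red ommochromes and dark melanins, so transcripts for pigment synthesis and cuticle are abundant in the wing at this time. The identifiers are those of an assembly without names. Of them, 0 matched one of the 15000 genes of the V. cardui reference table (assembly ilVanCard2.1). Which of the clusters are targets of Ultrabithorax, pigment genes or cuticle genes is therefore not analysed here, no wing or cell type marker could be checked, and the clusters are described by identifier. No sequence of the assembly was at hand, so none is shown.

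Depth differed between the genotypes. Relative to the shallowest library, as estimated from low values, wild type had depths of 1.37 and 1 (forewing) and of 1.26 and 1.59 (hindwing). The knockout had depths of 2.13 and 2.85 (forewing) and of 2.69 and 3.29 (hindwing). The hindwing was the deeper library in 3 of the 4 pairs, the exception being wild type 1. Across the 13250 clusters, which are not independent replicates, the 2 wild types correlated at 0.65 in either wing (Pearson's r) and the 2 knockouts at 0.86 and 0.82 in forewing and hindwing, while the wings of one genotype and number correlated at 0.90 to 0.96. Replicates of one group were thus less alike than the wings compared here.

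Higher levels in the hindwing in all 4 pairs were about as common as higher levels in the forewing. Of the candidates, 7.73% had a score above 0, and 6.68% (655 clusters) were lower in the hindwing in all 4 pairs. At rank 100 the score was 0.36 in the hindwing direction and 0.32 under the mirrored rule for the forewing, and at rank 50 the scores were 0.48 and 0.45. The lists differed at the top. The highest score was 2.20 for the hindwing and 1.34 for the forewing, and 6 hindwing-higher clusters but 2 forewing-higher clusters scored at least 1. The sizes at the top depended on the pseudocount, since with 0.1 in place of 1 the score of TRINITY_DN44089_c2 was 4.73 and not 2.20, and that of TRINITY_DN41725_c0 was 4.42 and not 1.61. Over all 13250 clusters the median difference was 0 in each of the 4 pairs, where some clusters had a difference of exactly 0. In each pair somewhat more clusters were higher in the hindwing than lower. The shares ran from 49.2% against 49.0% in knockout 2 to 48.8% against 45.0% in wild type 2. A difference between the directions was not tested.

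**Figure D1:**
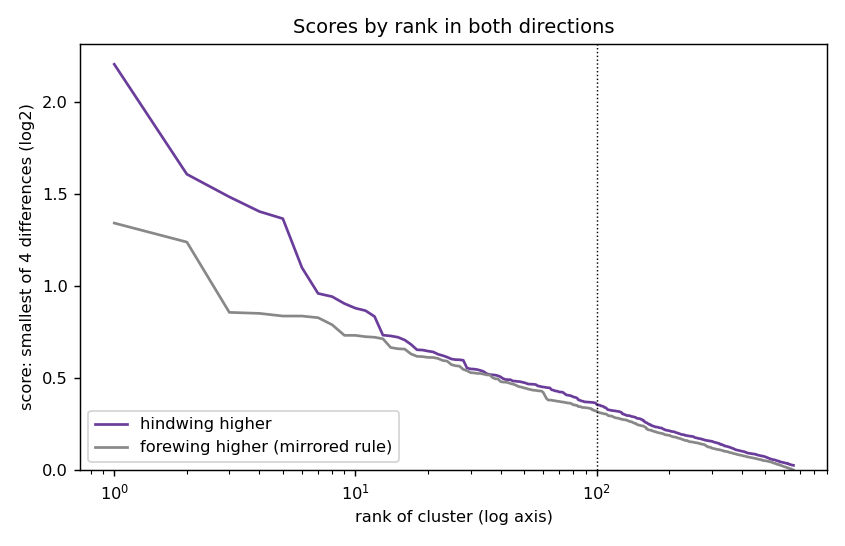
Score (smallest of the 4 wing differences, log2) against rank on a log axis, for candidates higher in the hindwing and, under the mirrored rule, in the forewing, up to rank 655. The curves run close together over most ranks, also at the dotted line of rank 100 (0.36 and 0.32), and are farthest apart at the first rank (2.20 and 1.34).

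The groups of 4 hindwings and 4 forewings did not overlap in 20 of the 100 clusters. Over all clusters with a mean sum of at least 2, all 4 hindwings lay above all 4 forewings in 0.325% (43 clusters), and all 4 forewings above all 4 hindwings in 0.302% (40 clusters). Since the rule used these differences, nothing is read from the share among the 100. Without wild-type hindwing 2 the number was 31 and not 20, the most for any library left out. Leaving out a library can only keep or raise this number, and it was not counted over all clusters, so nothing is read from the rise. In the other 80 clusters at least 1 forewing lay above a hindwing of another genotype or number. The mean of the 4 hindwings was at least 2 times that of the forewings in 51 of the 98 clusters with a forewing above 0, and at least 5 times in 7, and the lowest ratio was 1.42.

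**Figure D2:**
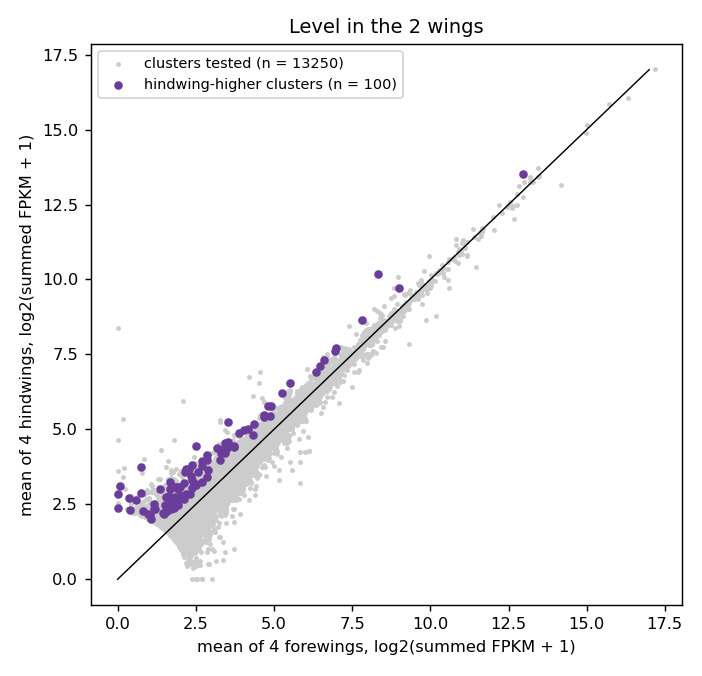
Mean summed FPKM of the 4 hindwings against that of the 4 forewings, both as log2(mean + 1), for all clusters tested (grey) and the 100 hindwing-higher clusters (purple), with the line of equal levels. The 100 clusters lie above the line by the rule that chose them, and most are at the low end of the range.

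The cluster with the highest score, TRINITY_DN44089_c2, was nearly absent from the forewing. Its forewing levels were 0.107 and 0 FPKM in wild type and 0.05 and 0.048 FPKM in the knockout. In the hindwings it reached 9.08 and 4.72 FPKM in wild type and 13.3 and 3.83 FPKM in the knockouts. Every hindwing was far above every forewing, and the genotypes overlapped in the hindwing. In whole wings, fewer cells that express a transcript and less of it per cell cannot be told apart, here or below. Of its 2 rows, 1 held 98.8% of the difference.

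The next clusters by score also had little or no forewing signal. TRINITY_DN41725_c0 was listed at 0 in all 4 forewings, at 4.05 and 4.84 FPKM in the hindwings of wild type and at 2.05 and 5.76 FPKM in those of the knockout. TRINITY_DN49930_c4 was listed at 0 in 3 forewings and at 1.28 FPKM in knockout forewing 1, against 5.33 and 3.23 FPKM in the wild-type and 5.38 and 1.80 FPKM in the knockout hindwings. The wings did not overlap in either cluster, but the rows behind the sums changed from library to library. In TRINITY_DN49930_c4 no row was higher in the hindwing in all 4 pairs, and neither was any row of TRINITY_DN41725_c0. The 5.328 FPKM of TRINITY_DN49930_c4 in wild-type hindwing 1 was also listed for rows of TRINITY_DN50312_c1 and TRINITY_DN48132_c0, so few reads may lie behind it.

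The remaining cluster listed at 0 in all 4 forewings, TRINITY_DN17496_c0, stood at 19.3 FPKM in wild-type hindwing 1 and at 0.662, 2.53 and 2.13 FPKM in wild-type hindwing 2 and the knockout hindwings. A single library thus held most of its summed FPKM, and its score of 0.73 was 2.93 with the pseudocount of 0.1. The row behind that value shared the exact level of 19.265 FPKM in wild-type hindwing 1 with a row of TRINITY_DN48399_c1. Equal values in different clusters can come from few reads, and the read numbers are unknown. A further 2 clusters were below 1 FPKM in all forewings without being listed at 0 in each, and the other 96 reached at least 1 FPKM in a forewing.

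The abundant cluster among the high scores was TRINITY_DN41350_c3, a single row of the assembly at rank 5. Wild type held 363 and 755 FPKM in its forewings against 1829 and 2176 FPKM in its hindwings. The knockout held 91.4 and 73.9 FPKM against 408 and 192 FPKM. Each knockout was below each wild type of the same wing, and the hindwing was above the forewing by 2.33 and 1.53 (log2) in wild type and by 2.15 and 1.37 in the knockouts. The wing difference was thus of much the same size in both genotypes at levels that differed several fold, and knockout hindwing 1 lay above wild-type forewing 1, which is what kept the cluster among the candidates.

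Of the other clusters among the 8 highest scores, TRINITY_DN47041_c1 had the higher means in the knockouts. It measured 7.41 and 0.339 FPKM in wild-type forewings against 30.7 and 2.60 FPKM in the hindwings, and 23.6 and 11.3 FPKM in knockout forewings against 88.6 and 25.3 FPKM in the hindwings. Number 1 was above number 2 in every group. TRINITY_DN43008_c1 was at 3.55 and 0 FPKM in the forewing and 7.86 and 8.97 FPKM in the hindwing of wild type, and at 2.86 and 2.27 FPKM, then 9.90 and 7.04 FPKM, in the knockout. Its 4 hindwings were the most alike of these 8 clusters.

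TRINITY_DN47858_c1 and TRINITY_DN29340_c0 were single rows with uneven replicates. The first measured 4.81 and 0 FPKM in wild-type forewings against 16.3 and 3.28 FPKM in the hindwings, and 0 and 1.47 FPKM in knockout forewings against 1.65 and 6.90 FPKM in the hindwings. The second was at 9.03 and 0 FPKM, 20.2 and 3.09 FPKM, 0 and 1.39 FPKM, and 2.74 and 3.59 FPKM in the same order. In both, wild-type forewing 1 was above at least 1 hindwing, so the wings overlapped.

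**Figure D3:**
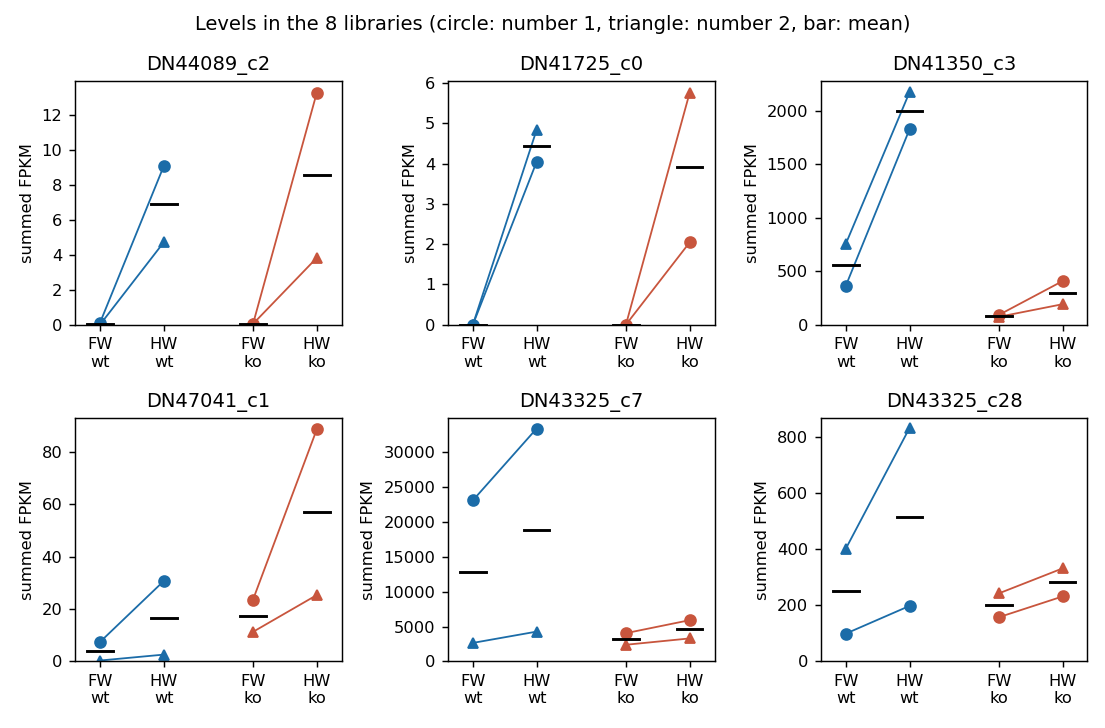
Summed FPKM of 6 named clusters (identifiers without the TRINITY prefix) in forewing (FW) and hindwing (HW) of wild type (wt, blue) and optix knockout (ko, red), on linear axes from 0. Lines join wings of one genotype and number, circles are number 1, triangles number 2, and black bars the mean of 2 libraries. Every line rises by the rule, from levels that differ between genotypes in TRINITY_DN41350_c3 and between the wild types in TRINITY_DN43325_c7.

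Most of the 100 clusters were of low abundance. The median of their mean sums was 6.20 FPKM, against 8.35 FPKM over all clusters tested, and the mean of the hindwings was under 10 FPKM in 56, from 10 to 100 FPKM in 35 and over 100 FPKM in 9. The reads behind these values are not known. As a guide, rows above 0 in a single library reached a 90th percentile of 3.94 to 5.33 FPKM in the wild-type hindwings and 1.63 to 1.86 FPKM in the knockout hindwings. The sums of 50 of the 100 clusters were above this value in all 4 hindwings, and 11 of these 50 had wings that did not overlap. The guide is from single rows, while 67 of the 100 clusters sum 2 or more rows. A sum can thus pass in all 4 hindwings where no row does, as in TRINITY_DN37214_c0. The same counts over all clusters are not given here, so nothing is read from them. At least 1 forewing was listed at 0 in 32 clusters, and 23 were listed at 0 in wild-type forewing 2, the shallowest library, against 6 in knockout forewing 2. Under the mirrored rule at least 1 hindwing was listed at 0 in 18 of the 100 forewing-higher clusters. Shares of such zeros over all clusters are not given here. The part of depth in these differences was not tested.

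At the upper end stood TRINITY_DN43325_c7, which held 23083 and 2653 FPKM in the forewings of wild type against 33376 and 4271 FPKM in its hindwings. The knockout forewings held 4049 and 2386 FPKM and the knockout hindwings 5912 and 3296 FPKM. The 4 wing differences were among the most even of the named clusters, at 0.53, 0.69, 0.55 and 0.47 (log2), while the wild types differed several fold from each other. All 3 of its rows were higher in the hindwing in all 4 pairs. With it the 100 clusters made up 2.08% of all FPKM in wild-type forewing 1 and 3.13% in wild-type hindwing 1, and without it 0.127% and 0.344%. Its part was smaller in wild type 2, where the forewing and hindwing shares were 0.583% and 1.18% with it and 0.348% and 0.764% without it. In the knockout libraries the shares were 0.522% to 0.894% with it and 0.142% to 0.444% without it.

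TRINITY_DN43325 was the only DN number with more than 1 of the 100 clusters, and it held 4. TRINITY_DN43325_c28 measured 98.8 and 401 FPKM in wild-type forewings against 198 and 831 FPKM in the hindwings, and 157 and 242 FPKM in knockout forewings against 231 and 331 FPKM in the hindwings. TRINITY_DN43325_c27 was at 294 and 1008 FPKM, 447 and 1902 FPKM, 332 and 415 FPKM, and 446 and 558 FPKM in the same order. TRINITY_DN43325_c25 was at 29.7 and 323 FPKM, 61.6 and 574 FPKM, 41.0 and 107 FPKM, and 53.2 and 145 FPKM. In these 3 clusters wild type 2 was the higher wild type in both wings, the reverse of TRINITY_DN43325_c7, and the wing difference was larger in wild type than in the knockouts by 0.34 to 0.52 (log2). Clusters under one DN number can share sequence, so their reads may have been divided among them and they are not independent of each other.

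Few other clusters of this DN number were higher in the hindwing in all 4 pairs. TRINITY_DN43325 had 29 clusters with a mean sum of at least 2, which together made up 5.79% to 10.4% of all FPKM in a library. Of the 25 outside the 100, 1 was higher in the hindwing in all 4 pairs and 3 were lower. Over all 97 DN numbers, 124 other clusters were tested, of which 5 were higher in the hindwing in all 4 pairs and 5 were lower (4.03% each). Among the candidates, with the 100 included, the shares were 7.73% and 6.68%. The other clusters had to pass only the minimum mean sum, while candidates also met the conditions on spread and genotype. The shares are thus not from like clusters. The rule had taken the highest scores out of these other clusters, so nothing is read from their counts. For 52 DN numbers there was no other cluster to compare.

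Other clusters over 100 FPKM in the hindwing included TRINITY_DN42736_c2, which differed far more between libraries of one group than between wings. It measured 11.9 and 438 FPKM in wild-type forewings against 25.6 and 612 FPKM in the hindwings, and 9.55 and 34.7 FPKM in knockout forewings against 14.7 and 129 FPKM in the hindwings. TRINITY_DN46297_c0 was the more even, at 77.7 and 58.4 FPKM, 101 and 98.8 FPKM, 112 and 99.2 FPKM, and 171 and 186 FPKM in the same order. Within each genotype its hindwings were above its forewings. The other 2 over 100 FPKM, TRINITY_DN4884_c0 and TRINITY_DN46020_c0, had hindwing means of 158 and 120 FPKM and forewing means of 96.4 and 79.8 FPKM. TRINITY_DN46297_c0, TRINITY_DN4884_c0 and TRINITY_DN46020_c0 were picked here for their level after their values were seen.

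In wild type the 100 clusters differed as much by replicate as by wing, and in the knockout somewhat less. The wing difference had a median of 1.04 and 0.88 (log2) in wild types 1 and 2 and of 0.71 and 0.85 in knockouts 1 and 2. The 2 wild types lay a median of 1.13 apart in the forewing and 1.08 apart in the hindwing, and the 2 knockouts 0.67 and 0.63. Over all clusters tested the same gaps were 0.89, 0.86, 0.46 and 0.53, each smaller than among the 100. All clusters tested include some whose largest library was under 2 times the smallest, which the rule kept out of the 100. The gaps are thus not from fully like clusters, and nothing is read from this. The mean gap between the wild types was larger than their mean wing difference in 58 clusters, and that between the knockouts in 33. Neither wild type was always the higher one, since number 1 was higher in both wings in 43 clusters and number 2 in 38.

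Large gaps between the wild types were common. In 11 clusters wild type 1 was over 2 (log2) above wild type 2 in both wings, against 7.92% of all clusters tested, and in 9 clusters wild type 2 was that much above wild type 1, against 4.62%. Such gaps were found between the knockouts in 1 and 3 clusters, against 1.42% and 2.14%. TRINITY_DN46828_c0 is an example in wild type. Number 2 was also above number 1 in both wings of its knockouts, but number 1 minus number 2 was -1.94 (log2) in the forewing, short of that bound. It measured 10.1 and 92.3 FPKM in wild-type forewings against 13.3 and 139 FPKM in the hindwings, and 8.90 and 37.0 FPKM in knockout forewings against 20.9 and 117 FPKM in the hindwings.

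**Figure D4:**
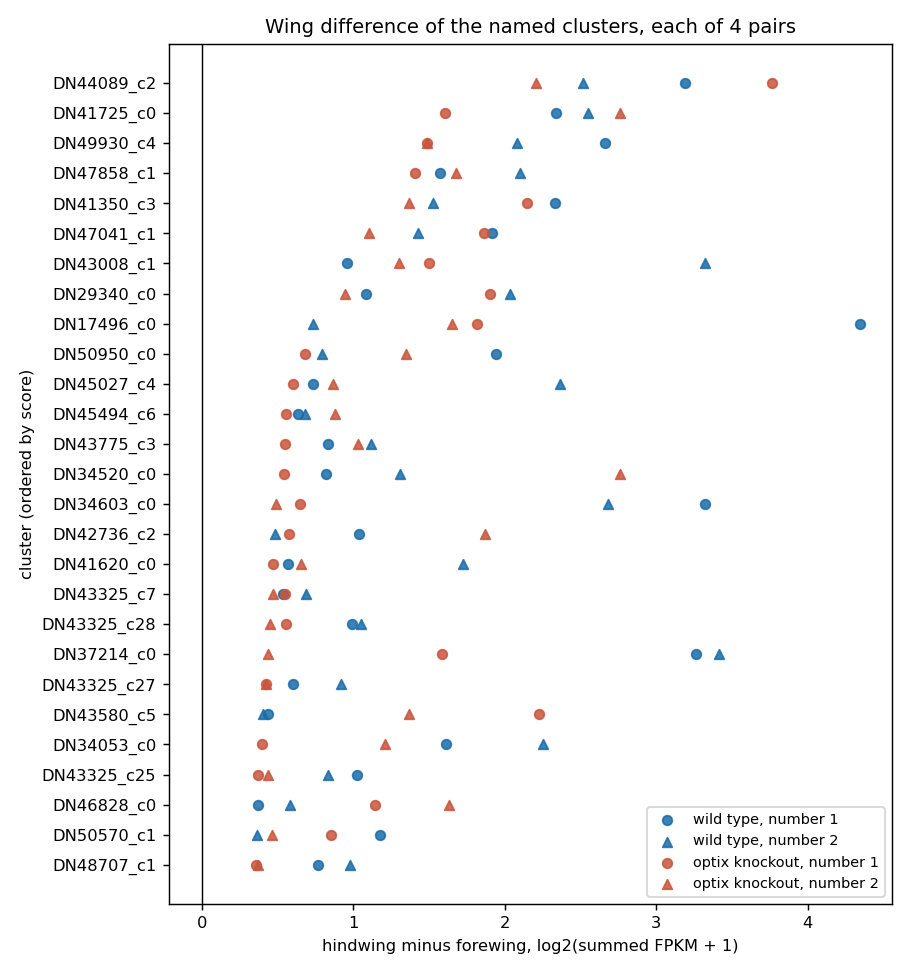
Hindwing minus forewing on the scale log2(summed FPKM + 1) for each named cluster (identifiers without the TRINITY prefix, ordered by score), with 1 point for each wild-type (blue) and knockout (red) pair of wings, circles for number 1 and triangles for number 2. All points lie right of 0 by the rule, and the spread over the 4 pairs is wide for TRINITY_DN17496_c0 and narrow for TRINITY_DN43325_c7.

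The wing difference was the larger one in wild type in 67 clusters and in the knockouts in 33, with a median difference between the genotypes of 0.20 (log2, wild type minus knockout), against 0.01 over all clusters tested. The values ran from -1.37 to 2.43, and 11 clusters differed by over 1 in either direction. The rule used these differences, so none was tested. The counts of 67 and 33 have no like count over all clusters here, so nothing is read from them. The wild types also lay farther apart from each other than the knockouts, and the part of this was not tested. TRINITY_DN34603_c0 had the largest gap. It was listed at 0 in both wild-type forewings and was at 8.98 and 5.42 FPKM in the wild-type hindwings, while the knockouts held 6.25 and 2.42 FPKM in the forewing and 10.4 and 3.81 FPKM in the hindwing. The hindwings of the genotypes overlapped and the forewings did not, and the forewing change of 2.32 (log2) was not called (adjusted p = 0.288, limma) and was 5.32 with a pseudocount of 0.1.

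TRINITY_DN37214_c0 had the next gap, and there the genotypes did not overlap in the hindwing, where the change of -1.79 (log2) was not called (adjusted p = 0.443, limma). Wild-type forewings were listed at 0 and wild-type hindwings held 8.59 and 9.65 FPKM, against 0 and 1.10 FPKM in the forewing and 2.005 and 1.83 FPKM in the hindwing of the knockout. In the other direction TRINITY_DN43580_c5 had a wing difference of 0.44 and 0.40 (log2) in wild type and 2.22 and 1.36 in the knockouts. It measured 0.462 and 3.35 FPKM in wild-type forewings against 0.982 and 4.76 FPKM in the hindwings, and 0.459 and 6.51 FPKM in knockout forewings against 5.81 and 18.3 FPKM in the hindwings. For TRINITY_DN46828_c0, given above, the wing difference was 0.37 and 0.58 in wild type and 1.14 and 1.63 in the knockouts.

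Whether the 100 clusters differed between knockout and wild type was tested within each wing, in a limma fit across all 13250 clusters. No cluster of the 100 was called at an adjusted p of 0.05 in either wing (limma, Benjamini-Hochberg adjustment). Over all clusters 0.475% were called in the forewing and 0.46% in the hindwing. The rule had left out clusters whose 4 wild types all lie above or all below the 4 knockouts, and of the 10896 clusters that pass this exclusion 0.0184% (2 clusters) were called in the forewing and 0% in the hindwing. The lack of calls among the 100 is therefore near what the exclusion leaves, and nothing is read from it.

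At an unadjusted p under 0.05 there were 11 of the 100 clusters in the forewing, 8 higher and 3 lower in the knockout, and 4 in the hindwing, 1 higher and 3 lower. Over all clusters such p-values were found in 9.73% and 8.99%, and over those that pass the exclusion in 2.75% and 2.07%. Both knockout forewings were above both wild-type forewings in 27 of the 100 clusters and below them in 6, where clusters that pass the exclusion gave 16% and 11.4%. In the hindwing the numbers were 18 and 15, against 14% and 9.27%. Clusters that pass the exclusion include some whose largest library was under 2 times the smallest, which the rule kept out of the 100. The shares are thus not from fully like clusters. The median change was 0.28 (log2, knockout minus wild type) in the forewing, against 0.17 over all clusters, and -0.02 in the hindwing, against 0.16. Quantile normalization moved these medians for all clusters to 0.03 and 0.01, and that of the 100 to -0.12 in the forewing and -0.13 in the hindwing, so the direction in the forewing depended on the scaling. The wild types were also the shallower libraries, and the part of depth was not tested.

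**Figure D5:**
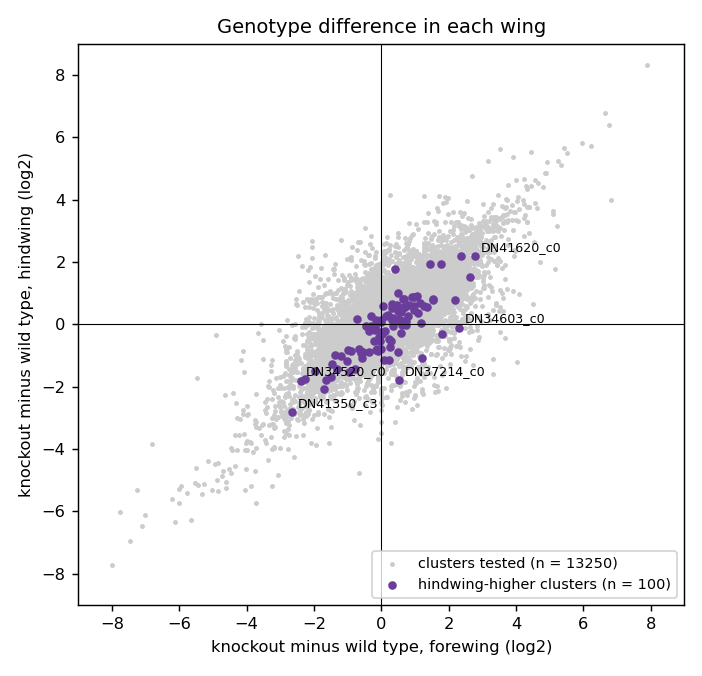
Knockout minus wild type (log2, limma) in the hindwing against the same in the forewing, for all clusters tested (grey) and the 100 hindwing-higher clusters (purple), with 5 named (without the TRINITY prefix). The lower left holds TRINITY_DN41350_c3 at -2.66 and -2.83, and no purple point was called in either wing.

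The 100 clusters came nearest to a call with TRINITY_DN41350_c3, the abundant single row described above. Its change was -2.66 (log2, SE 0.52, adjusted p = 0.153, limma) in the forewing and -2.83 (SE 0.52, adjusted p = 0.144, limma) in the hindwing, with both knockouts below both wild types in each wing. The change was thus several times its SE, with all 4 knockout libraries below the wild types of their wing, and the adjusted p missed the threshold. TRINITY_DN34520_c0 likewise had both knockouts below both wild types in each wing, with forewings of 10.5 and 4.40 FPKM in wild type and 1.23 and 0 FPKM in the knockout, and hindwings of 19.3 and 12.4 FPKM and of 2.24 and 5.78 FPKM. Its forewing change was -2.40 (SE 0.67, adjusted p = 0.291, limma), and -4.25 with a pseudocount of 0.1.

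The next lowest hindwing change was that of TRINITY_DN50950_c0, which missed the threshold (log2 change -2.06, SE 1.17, adjusted p = 0.696, limma) and ran from -2.96 to -1.16 without a hindwing library. Its hindwings held 20.6 and 73.1 FPKM in wild type against 4.14 and 16.8 FPKM in the knockout. In the forewing the genotypes overlapped, at 4.62 and 41.8 FPKM against 2.21 and 6.01 FPKM. The highest change in either wing was that of TRINITY_DN41620_c0, and it rested on knockout number 2. Its forewing levels were 32.9 FPKM in knockout 2, 1.54 FPKM in knockout 1 and 0.415 and 0.282 FPKM in the wild types. In the hindwing they were 52.2, 2.51, 1.10 and 3.23 FPKM. Its changes were 2.78 (SE 1.59, adjusted p = 0.633, limma) and 2.20 (SE 1.59, adjusted p = 0.765, limma). Without knockout 2 of the wing they were 0.91 and 0.23, and without knockout 1 they were 4.65 and 4.16.

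TRINITY_DN34053_c0 had both knockouts above both wild types in each wing. Its forewings held 5.62 and 0 FPKM in wild type against 22.0 and 10.1 FPKM in the knockout (log2 change 2.63, SE 1.06, adjusted p = 0.497, limma). The forewing change was 1.27 without wild-type forewing 2, 3.996 without wild-type forewing 1 and 4.31 with a pseudocount of 0.1. Its hindwings held 19.2 and 3.75 FPKM against 29.3 and 24.6 FPKM. TRINITY_DN47041_c1, at rank 6 of the scores, had a hindwing change of 2.19 (SE 1.32, adjusted p = 0.71, limma), and its hindwing libraries overlapped between the genotypes. That change was 0.62 without wild-type hindwing 2, 3.76 without wild-type hindwing 1 and 1.30 without knockout hindwing 1.

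The rows of a cluster add up to the sum that chose it, so their directions are a description too. Of the 100 clusters 33 were a single row, 61 had 2 to 5 rows above 0 and 6 had more, and over all clusters tested 37.2% were a single row. In 51 of the 67 clusters with several rows every row had a higher mean in the hindwing, and in 16 at least 1 row went the other way. Of their 217 rows, 196 had a higher mean in the hindwing and 82 were higher in all 4 pairs. In 24 clusters 2 or more rows were higher in all 4 pairs, and in 18 no single row was. In 9 clusters 1 row held at least 90% of the difference.

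In some of the clusters with the most rows, single rows rose less regularly than the sum, which the rule had chosen to rise. TRINITY_DN45494_c6 had 8 rows above 0, of which 6 had a higher mean in the hindwing and 1 was higher in all 4 pairs. Its sum measured 25.6 and 24.7 FPKM in wild-type forewings against 40.4 and 40.1 FPKM in the hindwings, and 13.5 and 35.6 FPKM in knockout forewings against 20.2 and 66.4 FPKM in the hindwings. TRINITY_DN45027_c4, with 7 rows, was at 3.31 and 1.47 FPKM, 6.17 and 11.7 FPKM, 6.54 and 8.29 FPKM, and 10.4 and 15.9 FPKM in the same order, with 4 rows up and 3 down. TRINITY_DN43775_c3, among 4 clusters with 7 rows, was at 34.5 and 3.06 FPKM, 62.1 and 7.80 FPKM, 25.0 and 16.0 FPKM, and 37.1 and 33.7 FPKM, and no row of it was higher in all 4 pairs. In TRINITY_DN51197_c4, also of 7 rows and added after its values were seen, all 7 had a higher mean in the hindwing and 3 were higher in all 4 pairs.

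The members at the edge of the list were hardly distinct from the clusters beyond it. TRINITY_DN50570_c1 (rank 99, score 0.365) and TRINITY_DN48707_c1 (rank 100, score 0.357) were just inside, and TRINITY_DN44324_c0 (score 0.354) and TRINITY_DN51901_c1 (score 0.353) just outside, so the scores at the edge were nearly equal. TRINITY_DN50570_c1 measured 1.33 and 6.14 FPKM in wild-type forewings against 4.26 and 8.19 FPKM in the hindwings, and 5.15 and 5.92 FPKM in knockout forewings against 10.1 and 8.52 FPKM in the hindwings. TRINITY_DN48707_c1 was at 4.73 and 3.22 FPKM, 8.74 and 7.30 FPKM, 7.75 and 9.38 FPKM, and 10.2 and 12.4 FPKM in the same order. Of the clusters just outside, TRINITY_DN44324_c0 had 7.13 and 38.5 FPKM, 11.9 and 49.5 FPKM, 2.12 and 44.4 FPKM, and 4.93 and 74.8 FPKM in that order. Leaving the wings of one genotype and number out of the score kept 32 (without wild type 1) to 43 (without knockout 2) of the 100 clusters in the list, so which clusters stood in it rested on each pair of wings.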

How the data were processed

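RNA-seq of 8 J. coenia libraries was used. Per the labels' protocols, libraries of poly(A) RNA had 15 cycles of PCR and were read as 36 bp pairs. The authors deposited FPKM per assembly row, with Bowtie2 named in the submitters' processing notes. Not given here are the quantification program, any version and any scaling. FPKM depends on transcript length and on the library's total, an exact 0 can be a failed estimate, and read numbers are unknown. The V. cardui table was not used, since its rows cannot be matched.

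FPKM was summed per cluster in Python 3.11.15 (pandas 2.3.3). Knockout was compared with wild type within each wing by limma 3.58.1 (R 4.3.3) on log2(sum + 1), which understates changes of low clusters, with a group-means model of all 8 libraries, a mean-variance trend, two-sided p-values and Benjamini-Hochberg adjustment over all 13250 clusters with a mean sum of at least 2. The test was also run on simulated data with known changes, in which the libraries varied independently of each other. In the real data the deviations of the wings of one number were correlated. The recovery is not given here, so nothing is read from that run. Relative depth was fitted to ratios of values under 0.6 FPKM over 28 pairs of libraries (largest residual 0.09 in log2).

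Alternatives were a pseudocount of 0.1, a minimum of 5 or none, median-of-ratios or quantile scaling, a replicate block, a correlation between wings, the libraries of the wing alone, no trend, single rows and leaving out libraries. Named clusters were the 8 highest scores, the 6 most abundant, those listed at 0 in all forewings, the largest genotype and genotype-by-wing differences, those with the most rows, those sharing a DN number, and those at the edge of the list. The members, lists and tests were chosen with earlier results of these data known.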

Additional observations from a re-analysis of the deposited data

How the results depend on the processing

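None of the 100 clusters was called between knockout and wild type in either wing under any alternative (limma, 0 each time, with 3 to 20 in the forewing and 1 to 11 in the hindwing at an unadjusted p under 0.05). The smallest adjusted p was 0.0836 to 0.732 in the forewing and 0.106 to 0.695 in the hindwing. With a minimum of 5 only 58 of the 100 clusters were tested, so the other 42 could not be called there. The median forewing change of those 58 was 0.07, which is not from the same set as the other medians. Without a library the median change of all 100 clusters ran from 0.25 to 0.46 in the forewing and from -0.17 to 0.20 in the hindwing. Its sign in the hindwing thus rested on single libraries. With the replicate block the calls were likewise 0 in both wings. The deviations of number 1 from number 2 correlated at 0.72 between the wild-type wings, 0.70 between the knockout wings and 0.19 to 0.32 between genotypes, which with 2 numbers is a hint and not a pairing. Of the 100 clusters, 87 stayed in the list with a pseudocount of 0.1, 96 with median-of-ratios scaling and 89 with quantile normalization. With a minimum mean sum of 5 it was 58, without a minimum 65, from single rows 44, and without the wings of one genotype and number 32 to 43. The wings did not overlap in 20 clusters, in 5 among those with a mean sum of at least 5, and in 21 to 31 without a library. Leaving out a library can only keep or raise that number. The lower numbers under a minimum of 5 follow from the 42 clusters below it. Of the 100 clusters, 99 kept a score above 0 with median-of-ratios scaling and 98 with quantile normalization. The genotype changes that the text prints for single clusters, each recomputed under the alternatives that tested it, kept their sign. The differences between the genotypes in wing difference were not recomputed. Read numbers are unknown, and the size of genotype change that 2 libraries a group can show is not given here.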
